A study of Mus musculus with 4 samples.

Results

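The Hippo kinase cascade was represented by 10 genes, *Stk3*, *Stk4*, *Sav1*, *Lats1*, *Lats2*, *Mob1a*, *Mob1b*, *Nf2*, *Wwc1* and *Taok1*, chosen by name out of 21938 protein-coding genes. Their chromatin accessibility was described by the assay for transposase-accessible chromatin with sequencing (ATAC-seq), which finds the stretches of DNA that a transposase can reach. The values were lists of peaks, stretches where the pileup of fragments rose above the local background of the same library. A member's window was its gene body with 20 kb on each side, and the 10 windows held 79 of 91057 peaks and 121 of 153954 in SMC lines 1 and 2, and 112 of 115837 and 123 of 128710 in non-SMC lines 1 and 2.

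All 4 lines were derived from lung tumors of *RP* mice, which carry floxed alleles of *Rb1* and *Trp53* (Rb1 L/L, Trp53 L/L) on a mixed background of C57Bl/6, Balb-c and S129 and received an adenovirus with Cre under the CMV promoter, which is not specific to a cell type, into the airways when several weeks old. Tumor cells were sorted by surface NCAM and CD44, and the NCAM high, CD44 low or negative lines are called SMC, for metastasizing cells of small cell lung cancer, while the NCAM low, CD44 high lines are called non-SMC. All lines were untreated and grown in RPMI1640 with FBS, the deletion of *Rb1* and *Trp53* is shared by both types, and 1 library was made per line. The title describes the cell types as paired, and lines of the same number are compared below as pair 1 and pair 2. Values given as a series of 4 follow the order SMC line 1, SMC line 2, non-SMC line 1, non-SMC line 2. Whether a line is 1 clone, and the age of the mice when the tumors were taken for these lines, are not given in the sources used here.

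In the Hippo pathway the kinases MST2 and MST1, encoded by *Stk3* and *Stk4*, act with the scaffold SAV1 to activate the kinases LATS1 and LATS2, which are bound by the co-activators MOB1A and MOB1B. NF2, WWC1 and the kinase TAOK1 work upstream of these kinases. Active LATS kinases phosphorylate YAP and TAZ, hold them in the cytoplasm and so keep them from the TEAD transcription factors, and in small cell lung cancer YAP and TAZ are known as genes of the non-neuroendocrine state.

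The regions with the strongest peaks, among those listed in both lines of 1 type and in neither line of the other, are printed first. A merged region is a stretch covered by overlapping peaks of any of the lines. A region with peaks from both SMC lines and none from the non-SMC lines is called SMC-only, and the reverse pattern non-SMC-only. A peak was called strong at a -log10 q of at least 5, q being its p-value adjusted for multiple testing within its own library. Of the 36 type-only regions in the 10 windows, 11 were strong in both lines of their type. The 8 of these with the highest mean percentile of fold enrichment within their lists are shown as 201 bases centred on the highest summit, plus strand of GRCm38 (the assembly of mm10), from the genome sequence of RefSeq. None overlaps an annotated exon. Capitals mark GGAATG (the TEAD motif), TGACTCA (the AP-1 motif) and CAGCTG (an E-box) on either strand.
*Wwc1*, intron 7, SMC-only, chr11:35888867-35889067: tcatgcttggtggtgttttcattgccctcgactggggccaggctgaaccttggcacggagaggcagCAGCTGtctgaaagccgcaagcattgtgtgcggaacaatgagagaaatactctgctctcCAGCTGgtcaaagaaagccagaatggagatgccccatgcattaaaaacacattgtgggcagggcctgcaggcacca
*Wwc1*, past the 3′ end, in an intron of *Rars*, SMC-only, chr11:35832296-35832496: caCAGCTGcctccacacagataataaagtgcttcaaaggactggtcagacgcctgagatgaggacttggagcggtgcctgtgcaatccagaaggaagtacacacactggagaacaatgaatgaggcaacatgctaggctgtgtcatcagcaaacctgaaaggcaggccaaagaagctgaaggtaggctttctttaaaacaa
*Nf2*, intron 1, non-SMC-only, chr11:4826255-4826455: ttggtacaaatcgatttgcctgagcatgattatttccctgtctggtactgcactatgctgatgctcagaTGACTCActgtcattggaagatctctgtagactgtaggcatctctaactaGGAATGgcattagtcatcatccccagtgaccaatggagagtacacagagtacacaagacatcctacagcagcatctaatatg
*Wwc1*, past the 3′ end, non-SMC-only, chr11:35837802-35838002: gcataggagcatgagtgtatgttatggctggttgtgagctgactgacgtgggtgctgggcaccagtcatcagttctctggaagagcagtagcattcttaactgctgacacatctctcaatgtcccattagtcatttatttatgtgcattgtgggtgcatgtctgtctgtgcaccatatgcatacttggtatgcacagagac
*Wwc1*, intron 15, SMC-only, chr11:35864962-35865162: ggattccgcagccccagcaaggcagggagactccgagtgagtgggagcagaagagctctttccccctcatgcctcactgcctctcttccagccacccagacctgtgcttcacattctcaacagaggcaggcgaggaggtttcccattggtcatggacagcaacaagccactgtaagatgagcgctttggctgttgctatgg
*Lats2*, upstream, non-SMC-only, chr14:57760533-57760733: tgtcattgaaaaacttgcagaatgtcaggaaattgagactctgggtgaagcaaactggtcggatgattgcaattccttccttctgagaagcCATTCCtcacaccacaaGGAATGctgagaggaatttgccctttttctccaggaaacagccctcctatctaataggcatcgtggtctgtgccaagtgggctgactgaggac
*Wwc1*, intron 9, non-SMC-only, chr11:35877741-35877941: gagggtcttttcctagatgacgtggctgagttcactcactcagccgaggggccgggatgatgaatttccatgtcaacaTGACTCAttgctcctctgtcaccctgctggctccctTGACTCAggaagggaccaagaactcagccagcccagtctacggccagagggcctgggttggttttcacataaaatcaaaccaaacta
*Sav1*, upstream, non-SMC-only, chr12:69998303-69998503: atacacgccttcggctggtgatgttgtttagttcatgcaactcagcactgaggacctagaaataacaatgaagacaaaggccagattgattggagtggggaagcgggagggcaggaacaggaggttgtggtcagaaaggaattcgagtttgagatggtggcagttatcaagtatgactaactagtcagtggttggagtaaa

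Across the 357570 merged regions of the genome, the TEAD letters stood within 100 bp of the highest summit in 12.6%, the AP-1 letters in 11.3%, the E-box letters in 13.7% and the longer CTCF motif in 0.839%. None of the 12 SMC-only member regions had the AP-1 or TEAD letters, which 4.19% and 9.48% of all SMC-only regions had, and 4 of the 12 had the E-box, against 21.1%. Of the 24 non-SMC-only member regions, 10 had the AP-1 letters, 4 the TEAD letters, 2 the E-box and 2 the CTCF motif. Over the genome, 46.8% of all non-SMC-only regions had the AP-1 letters, 19.3% the TEAD letters, 14.1% the E-box and 0.824% the CTCF motif, so the AP-1 and TEAD counts of the members were near those of their class. The region 2245 bp upstream of *Lats2* printed above held the TEAD letters on both strands, beginning 9 bp before and 8 bp after the summit. A match of letters does not show that a factor bound there.

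Depth differed among the lists. The lowest background of a library, recovered from the fold enrichment and p-value of its peaks, was 0.456 and 1.54 fragments in SMC lines 1 and 2, and 1.49 and 0.639 in non-SMC lines 1 and 2. The SMC line was thus the shallower one in pair 1 and the deeper one in pair 2. The lowest -log10 p in a list was 2.00 to 2.01, and the share of peaks with a q under 0.05 was 42.8%, 45.6%, 72.2% and 48.5% in the same order. Strong peaks numbered 13062, 26312, 43984 and 25103 in the whole lists. Markers followed the labels in part. Among the SMC markers, *Chga*, which encodes the secretory granule protein chromogranin A, had 9, 12, 3 and 5 peaks, more in both SMC lines. The types overlapped at *Ncam1*, with 10, 35, 36 and 28 peaks, at *Insm1*, with 5, 6, 3 and 5, and at *Syp*, with 7, 6, 8 and 7. All 3 non-SMC markers (*Cd44*, *Vim* and *Wwtr1*) had fewer peaks in both SMC lines. Over all protein-coding genes, 13.6% had fewer peaks in both SMC lines and 13.1% had more. Of 6 markers of leukocytes, endothelium and fibroblasts (*Ptprc*, *Cd68*, *Pecam1*, *Cdh5*, *Col1a1* and *Pdgfra*), 3 had fewer peaks in both SMC lines. Their summed peaks were 47 and 50 in the SMC lines and 59 and 65 in the non-SMC lines. No marker window was empty, and the part of other cells in the results was not tested.

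With 2 lines of each type, a two-sided exact permutation test cannot go below p = 0.33. No test was therefore made between SMC and non-SMC, and differences are read against the SD within types, the spread between lines of 1 type. The 10 windows together held 100 ± 29.7 peaks in the SMC lines (SD, n = 2) and 117.5 ± 7.78 in the non-SMC lines (SD, n = 2). The difference of -17.5 was smaller than the SD within types of 21.7, with -33 in pair 1 and -2 in pair 2. Scaled to the length of each list, the windows held 8.68 and 7.86 peaks per 10000 in SMC lines 1 and 2, and 9.67 and 9.56 in non-SMC lines 1 and 2. These shares did not overlap between the types, and SMC minus non-SMC was -1.34 per 10000 against an SD within types of 0.412, with -0.993 in pair 1 and -1.70 in pair 2. The difference rested on 1 gene: without *Stk3* the shares were 8.13 and 7.27 in SMC and 7.51 and 7.85 in non-SMC, which overlapped, and the difference was 0.0220 per 10000. Among strong peaks only, the shares per 10000 strong peaks were 11.5 and 10.3 in SMC and 10.7 and 10.4 in non-SMC, which overlapped as well.

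Of the 10 members, 2 (*Stk3* and *Wwc1*) had fewer peaks in both SMC lines than in both non-SMC lines, a pattern found in 13.6% of all protein-coding genes. None had more peaks in both SMC lines, which 13.1% of all genes had. Among strong peaks, 2 members (*Stk3* and *Sav1*) had fewer in both SMC lines, against 24.0% of all genes, and none had more, against 3.26%. When the pileups were scaled to the depth of the shallowest library, 3 members (*Stk3*, *Lats2* and *Nf2*) had fewer in both SMC lines and none had more, against 15.2% and 6.14% of all genes. This scaling left the lists with 65761, 29606, 46354 and 64460 peaks, fewest in SMC line 2. The median of SMC minus non-SMC was -0.25 peaks over the 10 members and 0 over all genes. With 10 members these counts are a description, and what follows takes the genes one by one.

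**Figure D1:**
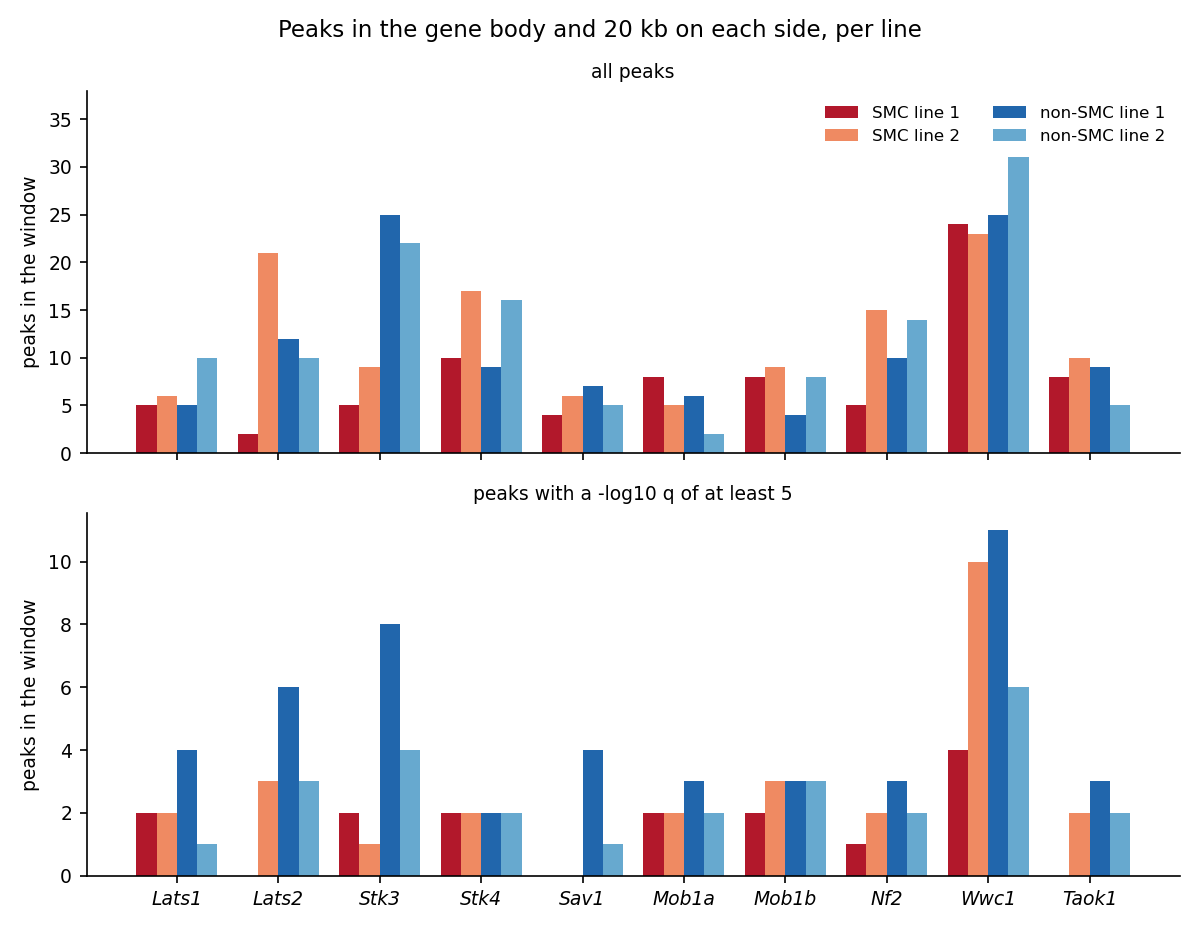
Number of peaks in the gene body and 20 kb on each side of each member, per line, for all peaks (top) and for strong peaks, those whose -log10 q reached 5 (bottom). Bars are single libraries, red and orange for SMC lines 1 and 2 and dark and light blue for non-SMC lines 1 and 2; *Stk3* shows 5 and 9 peaks in SMC against 25 and 22 in non-SMC.

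*Stk3*, which encodes MST2, showed the largest difference in number of peaks among the members. Its window of 343 kb held 5 and 9 peaks in SMC lines 1 and 2, and 25 and 22 in non-SMC lines 1 and 2. Both SMC lines were low and both non-SMC lines high, without overlap. SMC minus non-SMC was -16.5 peaks against an SD within types of 2.50, with -20 in pair 1 and -13 in pair 2. The lowest background in SMC against non-SMC was 0.456 against 1.49 in pair 1 and 1.54 against 0.639 in pair 2. The part of depth in the difference was not tested. The types also did not overlap among strong peaks (2, 1, 8 and 4 in the same order) or when the pileups were scaled to the depth of the shallowest library (4, 1, 9 and 9). In these bulk libraries, a site open in fewer cells and a site less open in each cell cannot be told apart. The local background at *Stk3* peaks had a median of 1.00 to 1.02 times the lowest background of the library. It was not flat at every region. At chr15:35155228-35156090 it was 1.42 and 3.17 fragments in SMC lines 1 and 2, and 8.03 and 2.37 in non-SMC lines 1 and 2.

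Most of these peaks were seen once. Many of those in non-SMC line 2 had a pileup of only 3 or 4 fragments. Of the 51 merged regions of *Stk3*, 44 had a peak in 1 line only, 4 and 8 in SMC lines 1 and 2, and 18 and 14 in non-SMC lines 1 and 2. A set of 6 regions was non-SMC-only and none was SMC-only. The non-SMC-only regions were spread along the gene. Counted on the principal transcript, 1 lay upstream of its start and 5 in introns 1, 4, 6, 6 and 8. The region upstream, chr15:35157383-35157792, had a fold enrichment of 12.3 and 5.34 in non-SMC lines 1 and 2. It lay 1719 bp from the start of the principal transcript, within an intron of longer transcripts. The region chr15:35020614-35022036 in intron 6 had a fold enrichment of 10.1 and 5.71 in the same order. Another region, chr15:35076842-35077464 in intron 4, reached 12.5 and 5.43 in non-SMC lines 1 and 2, and its -log10 q of 4.76 in non-SMC line 2 was just under the limit for strong peaks. The regions chr15:35071572-35071756 and chr15:35135651-35135859 were weak. Their pileups were 6 and 5 fragments in non-SMC line 1, and 3 at each in non-SMC line 2. Around the summits of the non-SMC-only regions, 3 of the 6 held the AP-1 letters and 1 the TEAD letters.

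The start of the principal *Stk3* transcript was open in every line. The region chr15:35155228-35156090 covers starts of several transcripts, and its fold enrichment over the local background of each library was 18.6 and 16.5 in SMC lines 1 and 2, and 11.1 and 13.7 in non-SMC lines 1 and 2. These stood at the percentiles 100, 99.9, 92.6 and 99.1 of the lists, lowest in non-SMC line 1. The gene was thus accessible at this start in both types, and the types differed in the peaks along the rest of the window. No line had a peak within 3 kb of the 5′ end of the longest annotated *Stk3* transcript, which lies further upstream.

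**Figure D2:**
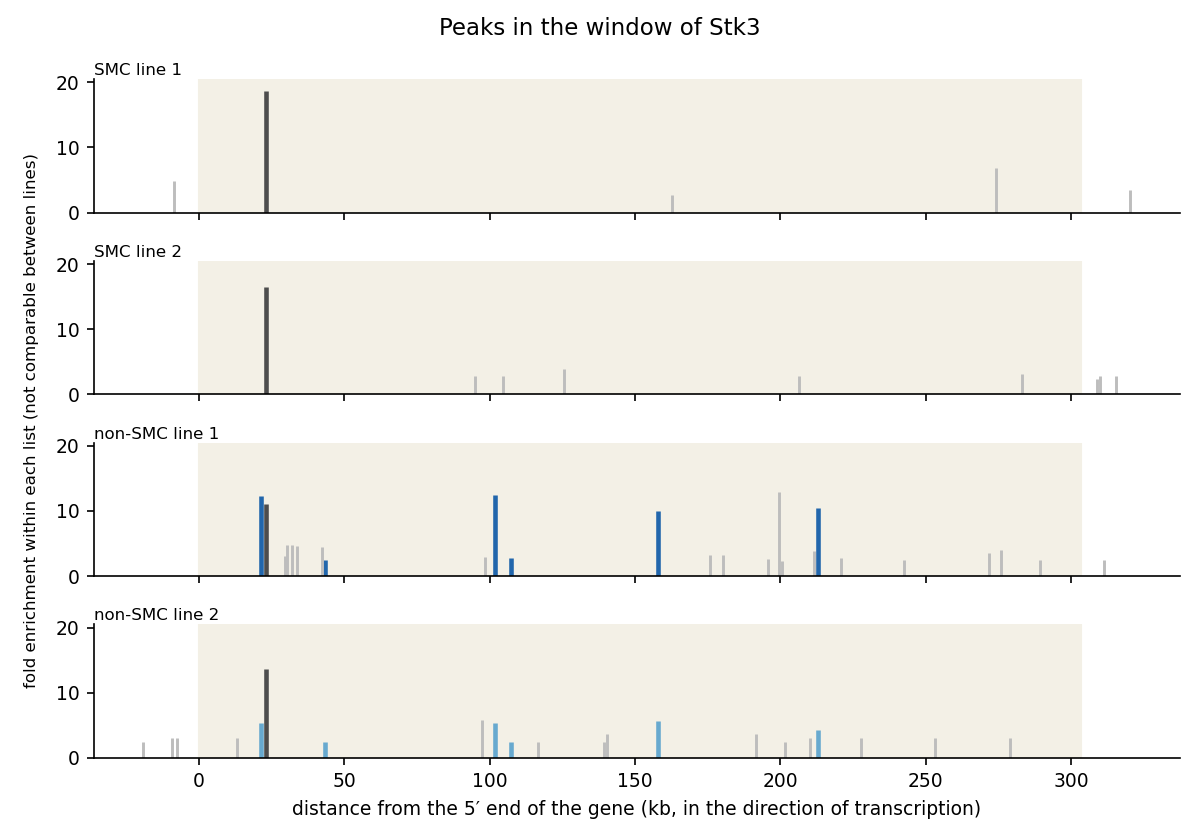
Fold enrichment (vertical axis, within each list) of the highest peak of each merged region in the *Stk3* window against the distance of its summit from the 5′ end of the gene in kb, 1 panel per line, with the gene body shaded. Dark grey marks regions open in all 4 lines, colour marks non-SMC-only regions and light grey the rest; the region open in all 4 lines is the highest in both SMC lines, and the 6 coloured regions are in the non-SMC panels only.

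*Stk4*, which encodes the related kinase MST1, showed no such separation. Its window of 125 kb held 10, 17, 9 and 16 peaks in SMC line 1, SMC line 2, non-SMC line 1 and non-SMC line 2, and line 2 was higher than line 1 in both types. SMC minus non-SMC was 1.00 against an SD within types of 4.95. Each line had 2 strong peaks. Both lay near starts. The first had its summits 587 to 872 bp past the 5′ end of *Stk4* and did not cover that end. Its highest summit lay 25 bp from a start of *Tomm34* on the other strand. The second, at chr2:164073954-164074478, had its highest summit 4 bp from the start of the principal *Stk4* transcript. The fold enrichment of the second was 6.32, 5.23, 7.57 and 5.88. Per 100 kb of window, *Stk3* had 1.46, 2.62, 7.28 and 6.41 peaks and *Stk4* 7.99, 13.6, 7.19 and 12.8. In density of peaks *Stk3* was therefore below *Stk4* in every line except non-SMC line 1, where the values were 7.28 and 7.19. Only 1 region of *Stk4*, chr2:164102613-164102970 in intron 9, was type-only. It was open in non-SMC and weak, with a fold enrichment of 3.21 and 2.36.

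*Sav1* encodes the scaffold that joins the MST and LATS kinases. It had 4, 6, 7 and 5 peaks, which overlapped between types. Its strong peaks numbered 0 and 0 in SMC and 4 and 1 in non-SMC, so that the types did not overlap. They did overlap at a common depth, with 3, 0, 4 and 3 peaks. The same held with equal numbers of top peaks, with 4, 3, 6 and 3. The SMC lines had peaks at its start below this limit. The highest promoter peak had a fold enrichment of 4.63 and 4.58 in SMC lines 1 and 2, and 6.02 and 4.25 in non-SMC lines 1 and 2, and the -log10 q was 2.92, 4.05, 7.53 and 2.65. The 1 non-SMC-only region, chr12:69997945-69998855, lay 11401 bp upstream of the gene, outside annotated genes, with a fold enrichment of 11.4 and 7.92 in non-SMC lines 1 and 2. It held none of the letters searched.

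The LATS kinases differed from each other in how many regions the 4 lines shared. *Lats1* had 5, 6, 5 and 10 peaks, in SMC line 1, SMC line 2, non-SMC line 1 and non-SMC line 2, and these overlapped between types. Its window is small and shared with *Pcmt1*, *Nup43* and *Katna1*. A group of 4 of its 10 regions was open in all 4 lines, and none was type-only. Of the shared regions, chr10:7662514-7663801 and chr10:7680773-7681223 had summits 39 and 140 bp from a start of *Pcmt1*. The region chr10:7725645-7726244 lay 90 bp from a start of *Katna1*, and chr10:7681424-7682019 lay 644 bp from a start of *Lats1*. *Lats2* had 2 and 21 peaks in SMC lines 1 and 2, and 12 and 10 in non-SMC lines 1 and 2. The SMC lines were the lowest and the highest of the 4 and lay on both sides of the non-SMC lines. SMC minus non-SMC was 0.50 against an SD within types of 9.55, and no direction can be read from it. At a common depth its peaks numbered 2, 3, 6 and 8, fewer in both SMC lines. SMC line 2 alone accounted for 15 of the 33 *Lats2* regions.

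At *Lats2*, 3 regions were non-SMC-only and 2 SMC-only, and none was open in all 4 lines. The non-SMC-only region printed above, chr14:57760404-57761304, lay 2245 bp upstream of the gene's 5′ end. Its fold enrichment was 12 and 8.23 in non-SMC lines 1 and 2, with pileups of 53 and 16 fragments, and the SMC lists had no peak in it. A second, chr14:57684670-57685204, lay past the 3′ end of *Lats2* within the overlapping gene model *Gm49361*, with a fold enrichment of 5.88 and 6.71. Both SMC-only regions lay in intron 2 of the principal transcript. The one at chr14:57709182-57709500 had a fold enrichment of 5.51 in SMC line 1 and 5.46 in SMC line 2, and its -log10 q of 4.35 in SMC line 1 kept it from being strong in both lines. At the start of the principal *Lats2* transcript, the region chr14:57746070-57746671 had no peak in SMC line 1 and a fold enrichment of 3.14 in SMC line 2, against 5.90 and 3.79 in non-SMC lines 1 and 2. Among the members, *Lats2* alone had a principal start without a peak within 3 kb in every line, and the line without one was SMC line 1.

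The 250 bases before that start, chr14:57746124-57746373 on the minus strand, are shown because this is the principal start that lacked a peak in SMC line 1, and those of *Nf2*, chr11:4849545-4849794 on the minus strand, because its promoter peak ranked high in every line. Both are from the promoter table of RefSeq (GRCm38.p6), which held 11 promoters of 9 of the 10 members.
*Lats2*: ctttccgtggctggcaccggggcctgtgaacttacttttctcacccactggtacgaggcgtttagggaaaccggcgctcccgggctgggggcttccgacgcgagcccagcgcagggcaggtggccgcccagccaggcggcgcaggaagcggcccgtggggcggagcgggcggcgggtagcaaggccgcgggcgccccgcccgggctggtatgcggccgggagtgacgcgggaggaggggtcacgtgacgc
*Nf2*: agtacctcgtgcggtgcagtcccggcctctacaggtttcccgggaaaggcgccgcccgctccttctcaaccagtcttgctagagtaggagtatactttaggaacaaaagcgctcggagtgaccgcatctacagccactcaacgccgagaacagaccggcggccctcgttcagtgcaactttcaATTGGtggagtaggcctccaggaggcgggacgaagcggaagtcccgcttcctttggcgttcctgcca
Capitals mark CCGGAAG (the ETS motif), CATGCGC (the core of the NRF1 motif), CCAAT and TATAAA on either strand. Over the 300 bases from 250 before to 50 after a start, these stood in 8.86%, 3.91%, 37.4% and 13.6% of the 32851 promoters of the table. Among the 11 member promoters, 1 (*Stk4*) held the ETS letters, 3 held CCAAT, and none held the NRF1 or TATAAA letters.

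*Mob1a* and *Mob1b* encode the co-activators of the LATS kinases. *Mob1a* had 8, 5, 6 and 2 peaks and *Mob1b* 8, 9, 4 and 8, in SMC line 1, SMC line 2, non-SMC line 1 and non-SMC line 2, and the types overlapped for both genes. SMC minus non-SMC was 2.50 for *Mob1a* (SD within types 2.50) and 2.50 for *Mob1b* (SD within types 2.06). Both promoters were open in all 4 lines. The *Mob1a* promoter, chr6:83325698-83326601, had a fold enrichment of 8.06, 8.86, 13.6 and 10.1, at the percentiles 94.4, 96.2, 96.8 and 95.9 of the lists. The *Mob1b* promoter, chr5:88720087-88721380, had 7.55, 8.08, 7.89 and 6.53, at the percentiles 93.1, 94.9, 83.0 and 86.2. *Mob1a* had no type-only region. *Mob1b* had 2 SMC-only regions 8683 and 9548 bp upstream of its 5′ end. The farther one, chr5:88711163-88711401, had a fold enrichment of 3.43 in SMC line 1 and 5.52 in SMC line 2. *Mob1b* also had 1 non-SMC-only region in intron 1, whose fold enrichment was 9.02 in non-SMC line 1 but 2.65 in non-SMC line 2. The local background at *Mob1b* peaks was raised in the non-SMC lines, with a median of 3.41 and 1.99 times the lowest background against 1.08 and 1.00 in the SMC lines, and its part in the counts was not tested.

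Upstream of the kinases, *Nf2*, which encodes the tumor suppressor merlin, had 5, 15, 10 and 14 peaks and the types overlapped, while at a common depth it had 2, 2, 3 and 6. Its promoter, chr11:4849191-4849894, had the highest percentiles among the promoters at the 5′ ends of the members, 97.4, 98.2, 97.2 and 98.6. The fold enrichment there was 9.88, 10.9, 14.0 and 12.8. *Nf2* also held the non-SMC-only region with the highest mean percentile of any member, chr11:4826210-4826584 in intron 1, shown above with 1 AP-1 and 1 TEAD match. Its fold enrichment was 12.5 and 11.8 in non-SMC lines 1 and 2, with pileups of 44 and 23 fragments. The other non-SMC-only regions of *Nf2*, in introns 1 and 4, were weaker, with a fold enrichment between 3.05 and 4.83. Its 1 SMC-only region, chr11:4754834-4755425, lay past the 3′ end of the gene, outside annotated genes, with a fold enrichment of 4.98 and 3.05.

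*Wwc1*, which encodes the NF2 partner KIBRA, had the most type-only regions, 6 SMC-only and 8 non-SMC-only of 65. In the windows of all protein-coding genes, 4.28% of the regions were SMC-only and 7.17% non-SMC-only. *Wwc1* also had the most merged regions of any member. Its window held 24, 23, 25 and 31 peaks. The lines of both types lay close together, with 24 against 25 at the border, and SMC minus non-SMC was -4.50 against an SD within types of 3.04. That direction turned, to 2 and 1.5, when every list was given the same number of top peaks or the same depth. The number of peaks at *Wwc1* therefore did not hold its direction. All 3 SMC-only regions of the members that were strong in both lines lay in this window. The region in intron 7, chr11:35888533-35889299, had a fold enrichment of 11.2 and 9.0 in SMC lines 1 and 2, at the percentiles 98.6 and 96.3 of these lists. It holds the pair of E-box letters printed above. The region in intron 15, chr11:35864960-35865287, had 8.56 and 8.87. The region chr11:35832159-35832661 had 11.2 and 8.63, and lies past the 3′ end of *Wwc1* in an intron of *Rars*, 2065 bp from a start of that gene.

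The strong non-SMC-only regions of *Wwc1* lay at other positions. The region in intron 9, chr11:35877718-35878464, had a fold enrichment of 9.59 and 9.88 in non-SMC lines 1 and 2 and holds 2 AP-1 matches. The region chr11:35837698-35838236, just past the 3′ end of *Wwc1*, had 11.9 and 11.9, with pileups of 111 and 39 fragments, and none of the letters searched. Another set of 4 regions was open in all 4 lines. The promoter among them, chr11:35980447-35980836, had a fold enrichment of 4.14, 5.82, 5.06 and 3.89. These values stood at the percentiles 72.0, 88.7, 66.8 and 65.9 of the lists. The median local background at *Wwc1* peaks was alike in the 4 lines, between 1.57 and 1.63 times the lowest background. It was not flat at every region. At chr11:35837698-35838236 it was 8.40 and 2.37 fragments in non-SMC lines 1 and 2. At the neighbouring chr11:35838358-35838716, open in all 4 lines, it was 0.823 and 3.01 in SMC lines 1 and 2, and 8.41 and 2.40 in non-SMC lines 1 and 2. The part of this background in the type-only regions was not tested.

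**Figure D3:**
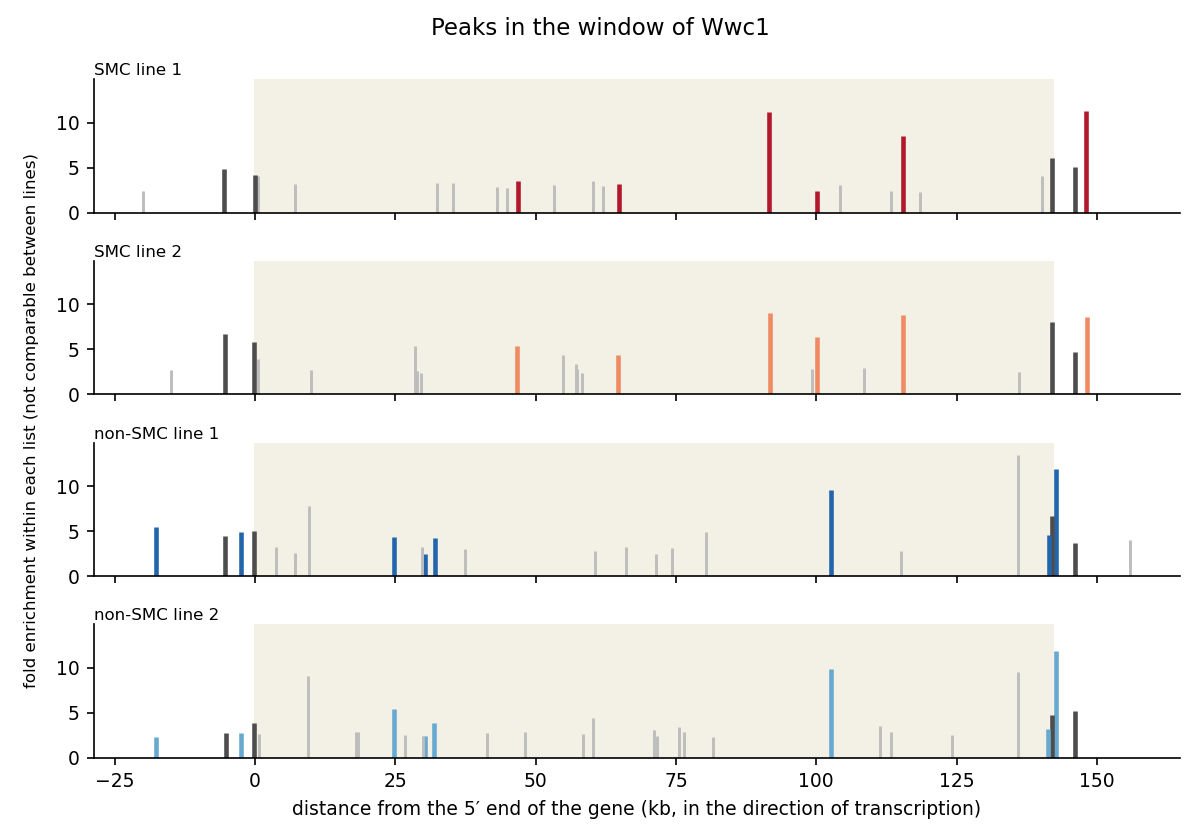
Fold enrichment (vertical axis, within each list) of the highest peak of each merged region in the *Wwc1* window against the distance of its summit from the 5′ end of the gene in kb, 1 panel per line, with the gene body shaded. Colour marks type-only regions (6 SMC-only, 8 non-SMC-only), dark grey the 4 regions open in all lines and light grey the rest; the 3 SMC-only regions with the highest fold enrichment lie 91.6, 115 and 148 kb from the 5′ end.

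*Taok1*, an upstream kinase that phosphorylates the MST kinases, had 8, 10, 9 and 5 peaks and the types overlapped. Its promoter, chr11:77607590-77608315, was open in all 4 lines with a fold enrichment of 5.79, 5.04, 7.43 and 8.76. Upstream of the gene 2 type-only regions lay close together. The non-SMC-only region chr11:77624479-77624940 had a fold enrichment of 8.79 and 4.72 in non-SMC lines 1 and 2. The SMC-only region chr11:77625046-77625655 had 4.29 in SMC line 1 and 4.87 in SMC line 2, with its summit 17324 bp from the 5′ end of the gene.

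Counted over all members, 12 of 294 merged regions (4.08%) were SMC-only, against 4.28% of the regions in the windows of all protein-coding genes and 4.37% of all merged regions. A further 24 (8.16%) were non-SMC-only, against 7.17% and 7.33%. Regions open in all 4 lines numbered 20 (6.80%), against 4.89% in the windows of all genes. The type-only shares were near the background. A peak in 1 line only was found at 213 regions (72.4%), against 75.2% in the windows of all genes. The counts depend on having both lines of a type: without SMC line 1, 83 regions with a peak in SMC line 2 had none in the non-SMC lines, and without SMC line 2 there were 46. Of the regions open in all 4 lines, 18 of 20 had a summit within 3 kb of an annotated start, 10 of a member and 8 of another gene. So did 1 of the 12 SMC-only regions (8.33%) and 6 of the 24 non-SMC-only regions (25.0%), against 83 of all 294 regions (28.2%). Most type-only regions lay farther from a start, in introns or between genes. Lying farther away was not particular to them, since 211 of the 294 regions did.

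**Figure D4:**
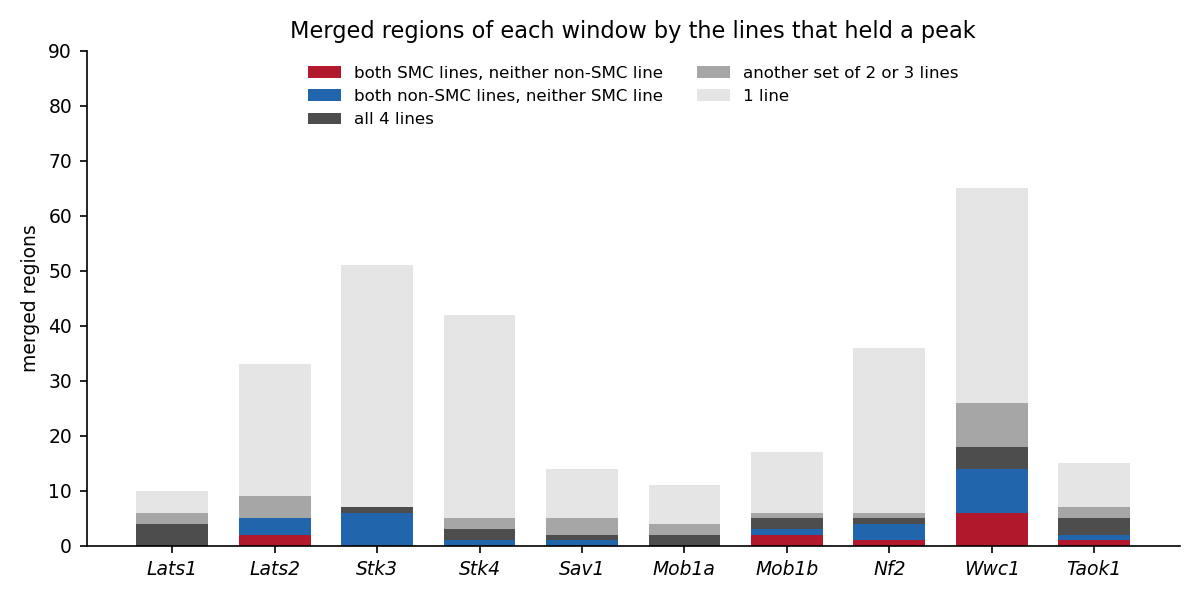
Merged regions in the window of each member, stacked by the lines that held a peak: both SMC lines only (red), both non-SMC lines only (blue), all 4 lines (dark grey), another set of 2 or 3 lines (grey) and 1 line (light grey). *Wwc1* shows 6 SMC-only and 8 non-SMC-only regions, *Stk3* shows 6 non-SMC-only and no SMC-only region, and regions seen in 1 line make up most of the larger windows.

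The promoter, the 6 kb around the 5′ end of a gene, held a peak in all 4 lines at 8 of the 10 members, a pattern of 48.7% of all protein-coding genes. The exceptions were *Stk3* and *Lats2*, whose longest transcripts begin far upstream of the principal ones. At the starts of the principal transcripts, 9 of 10 members had a peak within 3 kb in all 4 lines, against 49.0% of all genes at the starts chosen in the same way. Strong promoter peaks at the 5′ end were found at 4 and 6 members in SMC lines 1 and 2, and 9 and 6 in non-SMC lines 1 and 2. These counts overlapped between the types. Over all genes the share with a strong promoter peak was 27.7%, 41.0%, 49.5% and 36.4%, in the same order of lines.

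**Figure D5:**
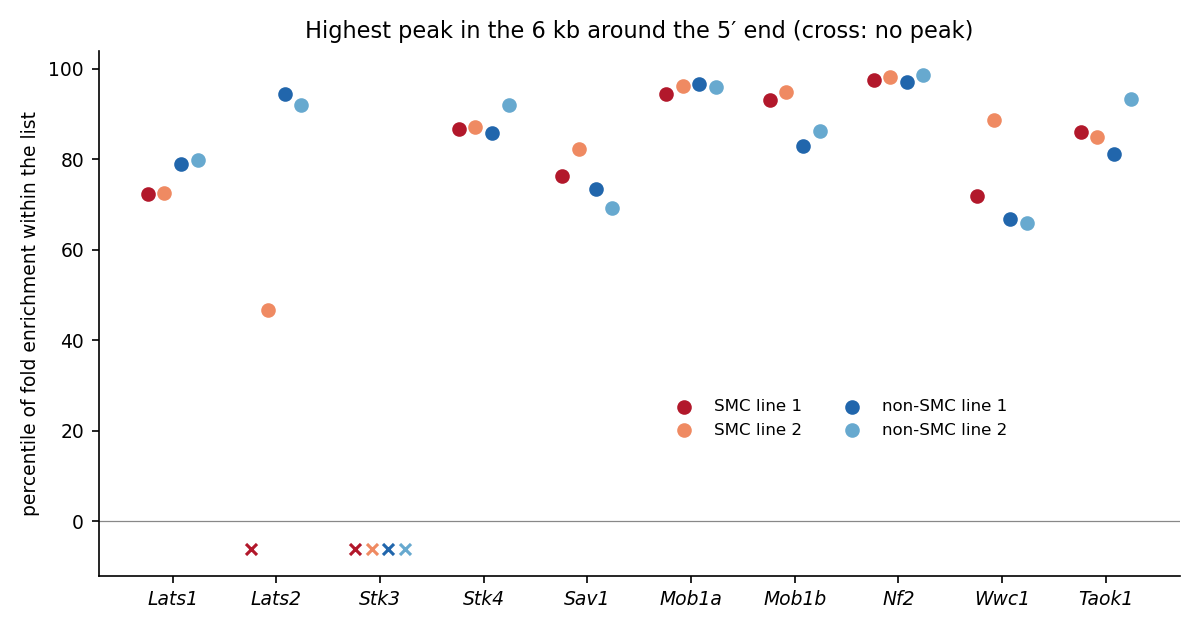
Percentile of fold enrichment, within its own list, of the highest peak in the 6 kb around the 5′ end of each member, per line, with a cross where there was no peak. *Nf2* and *Mob1a* sit above 94 in every line, *Stk3* has no peak at this end in any line, and *Lats2* has none in SMC line 1.

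The other genes of the pathway were counted as a list of 32, among them further MAP4K and TAO kinases, NDR kinases, upstream regulators and the STRIPAK complex that opposes MST. Of these, 2 had fewer peaks in both SMC lines and none had more, against 13.6% and 13.1% of all protein-coding genes. *Wwc2*, the paralogue of *Wwc1*, had 14, 13, 31 and 23 peaks in SMC line 1, SMC line 2, non-SMC line 1 and non-SMC line 2. *Fat4*, an atypical cadherin upstream of the pathway, had 6, 7, 11 and 10. Among strong peaks, 14 of the 32 had fewer in both SMC lines, against 24.0% of all genes, and none had more, against 3.26%. A promoter peak in all 4 lines was found at 19, against 48.7% of all genes. The median of SMC minus non-SMC was -1.25 peaks over the list. Summed over the list, strong peaks numbered 41 and 59 in SMC and 148 and 86 in non-SMC, while all peaks numbered 230 and 396 against 372 and 362, which overlapped.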

How the data were processed

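The authors mapped paired-end reads of each line to mm10 with Bowtie2 2.3.4, sorted them with samtools, used sambamba to remove duplicates, and ran MACS2 2.1.1 on each library without pooling. The settings of the peak calling are not given in the sources used here. The fold enrichment that the authors deposited is the ratio of pileup to local background at the summit, and the authors also deposited the -log10 of the p-value and q-value and the summit position. All of them scale with sequencing depth, and they were used to rank and filter peaks inside each list. Counts of strong peaks and fold enrichments set side by side between lines therefore carry the differences in depth.

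Peaks outside chromosomes 1 to 19, X and Y (61 to 85 per library) were dropped, and the others were matched to GENCODE M21. Peaks overlapping a window or each other by at least 1 base were counted and merged. The principal transcript was the longest with the best APPRIS rank. Pileup and background were recovered from fold = (pileup + 1)/(background + 1) and the Poisson p, for all but 3 to 5 peaks per library. Window counts, merging, recovery and motif search were tested on simulated data. The 10 members, the lists and the motifs were chosen with earlier results of these data known. All members are described. The regions named were the type-only regions with a -log10 q of at least 5 in both lines, or for members without one the type-only region with the highest mean percentile, and of the 32 other pathway genes those whose types did not overlap. Further regions of the members were named after their values were seen. The alternatives were only strong peaks, the same number of top peaks per list, a common depth (pileup and background scaled to the shallowest library, p up to 0.001), other windows, promoters and overlaps, each line left out, and, added after the data had been seen, leaving out *Stk3*. The lines pair by the label, and no other source states what a pair shares. The software was bedtools 2.31.1 and Python 3.11.15 with pandas 2.3.3, scipy 1.17.1, numpy 2.4.6 and matplotlib 3.10.9. Part of the SMC marker list is not reported here.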

Additional observations from a re-analysis of the deposited data

Results flagged for a closer look

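Several results had opposite signs in pair 1 and pair 2. With 1 library of each type per pair, this contrast was not tested. SMC minus non-SMC peaks were -10 in pair 1 and 11 in pair 2 at *Lats2*, 21 apart. At *Sav1* they were -3 and 1, 4 apart, at *Nf2* -5 and 1, 6 apart, and at *Taok1* -1 and 5, 6 apart. Strong peaks over the 10 windows gave -32 and 1, 33 apart. Per 10000 strong peaks the values were 0.798 and -0.0959, and pair 2 minus pair 1 was -0.894. Without *Stk3*, peaks in the windows gave -13 and 11, 24 apart, and the shares per 10000 gave 0.616 and -0.572, with pair 2 minus pair 1 at -1.19. The SMC library was the shallower one in pair 1 and the deeper one in pair 2, with lowest backgrounds of 0.456 against 1.49 and 1.54 against 0.639. With pileups scaled to the shallowest library, the pair differences were -4 and -5 at *Lats2*, -1 and -3 at *Sav1* and -1 and -4 at *Nf2*, so that the signs no longer differed there. They were 3 and -2 at *Taok1* and 17 and -23 over the windows without *Stk3*, opposite still but with the signs exchanged. The scaled list of SMC line 2 was the shortest, with 29606 peaks.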

How the results depend on the processing

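SMC minus non-SMC of the member peaks per 10000 was -1.34, and became 0.351 with strong peaks only, -0.436 at a common depth, -0.606 with 50 kb on each side and 0.0220 without *Stk3*; the cause was not tested. The replicate block, SMC minus non-SMC within pairs, gave the same averages by construction, -17.5 peaks and -1.34 per 10000, and the same for every member. The difference of -17.5 peaks ranged from -38.5 to 3.50 when each line was left out, and only leaving out SMC line 1 turned it. SMC-only regions numbered 12, and 3 with strong peaks, 7 with no flank and 14 to 83 with a line left out. Non-SMC-only regions numbered 24, and 12 with strong peaks and 27 to 86 with a line left out. These counts rise with a line left out because fewer lines are required. Members with fewer peaks in both SMC lines numbered 2 (*Stk3* and *Wwc1*), 3 at a common depth (*Stk3*, *Lats2* and *Nf2*), 1 with the same number of top peaks or no flank, and 2 to 5 with a line left out. Members with more numbered 0, and 1 with the same number of top peaks (*Mob1b*) or no flank (*Taok1*) and 1 to 5 with a line left out. Promoter peaks in all 4 lines were found at 8 members, and at 4 with strong peaks and 8 to 9 with a line left out. For *Wwc1* the difference of -4.50 became 1.5 at a common depth and 2 with equal numbers of top peaks. For *Stk3* it lay between -18.5 and -4.50 under all 10 alternatives. The highest peak of a member region had at most 4 fragments at 33 of 77 regions in SMC line 1 and 57 of 121 in non-SMC line 2, and at none in the other lines. A region without a listed peak is not shown to be closed.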
